A study of Mus musculus with 4 samples.

Results

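The 30 genes described here run the decision of a cell to leave G1 and replicate its DNA: the G1 cyclins and their kinases, the inhibitors of those kinases, the RB family, the E2F factors with their DP partners, and the MuvB core of the DREAM complex. They were taken by symbol from a list made for this work, from among 48858 genes with summed counts, and all 30 were found. The libraries held RNA of naive CD4 T cells, sorted by flow cytometry as TCRβ-positive CD4 cells that were CD25-negative, CD62L-high and CD44-low. The 2 DKO libraries came from mice labelled Btg1f/f Btg2f/f-CD4-Cre, in which Cre under Cd4 control removes both floxed genes across the T cell lineage. The 2 WT libraries came from littermates labelled Btg1f/f Btg2f/f, which carried the floxed alleles without Cre. The labels speak of pairs of mice, so each library was read as a separate animal, and the question from the title was how RNAs of quiescent T cells depend on BTG1 and BTG2.

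In a resting cell the pocket proteins (RB and its relatives p107 and p130) hold E2F factors on the promoters of cell cycle genes. D cyclins with CDK4 or CDK6, and then E cyclins with CDK2, phosphorylate the pocket proteins and free E2F, while INK4 inhibitors block CDK4 and CDK6 and CIP/KIP inhibitors such as p27 bind cyclin-CDK pairs. In quiescence p130 or p107, a repressor E2F, a DP partner and the MuvB proteins form DREAM, which silences both replication and mitosis genes. Naive T cells are known for their long stay in this state and for abundant p27.

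The G1 network of the DKO cells had no gene called different from the WT cells under TMM scaling (a scaling that centres the bulk of genes), and Ccnd2 had its smallest p-value. Of the 30 genes, 28 passed a filter on low counts, and 0 were called higher or lower by edgeR's quasi-likelihood test at an adjusted p of 0.05, against 0.124% of the 12863 genes tested (0.0544% higher and 0.07% lower in DKO). At an unadjusted p under 0.05, edgeR passed 1 of the 28, Ccnd2 (higher), against 3.82% of all genes higher and 4.35% lower (4.39% and 2.66% of protein-coding genes). DESeq2 called 0 of them. The median log2 fold change (DKO over WT) was 0 for the 28 genes and −0.01 for all genes tested, with 14 of the 28 above 0 (50%, against 48.1% of all genes and 52.7% of protein-coding genes). For 5 genes the DKO libraries were the higher pair (Ccnd2, E2f3, E2f4, E2f6 and Lin54) and for 6 the lower pair (Ccnd1, Cdk4, E2f5, Tfdp1, Tfdp2 and Lin52), without overlap. Of all tested genes 19.8% and 18.8% did so, and of protein-coding genes 22.3% and 16.4%. With 2 libraries against 2, an exact two-sided permutation test of a single value cannot go below 0.333, so p-values come from the model across genes.

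**Figure D1:**
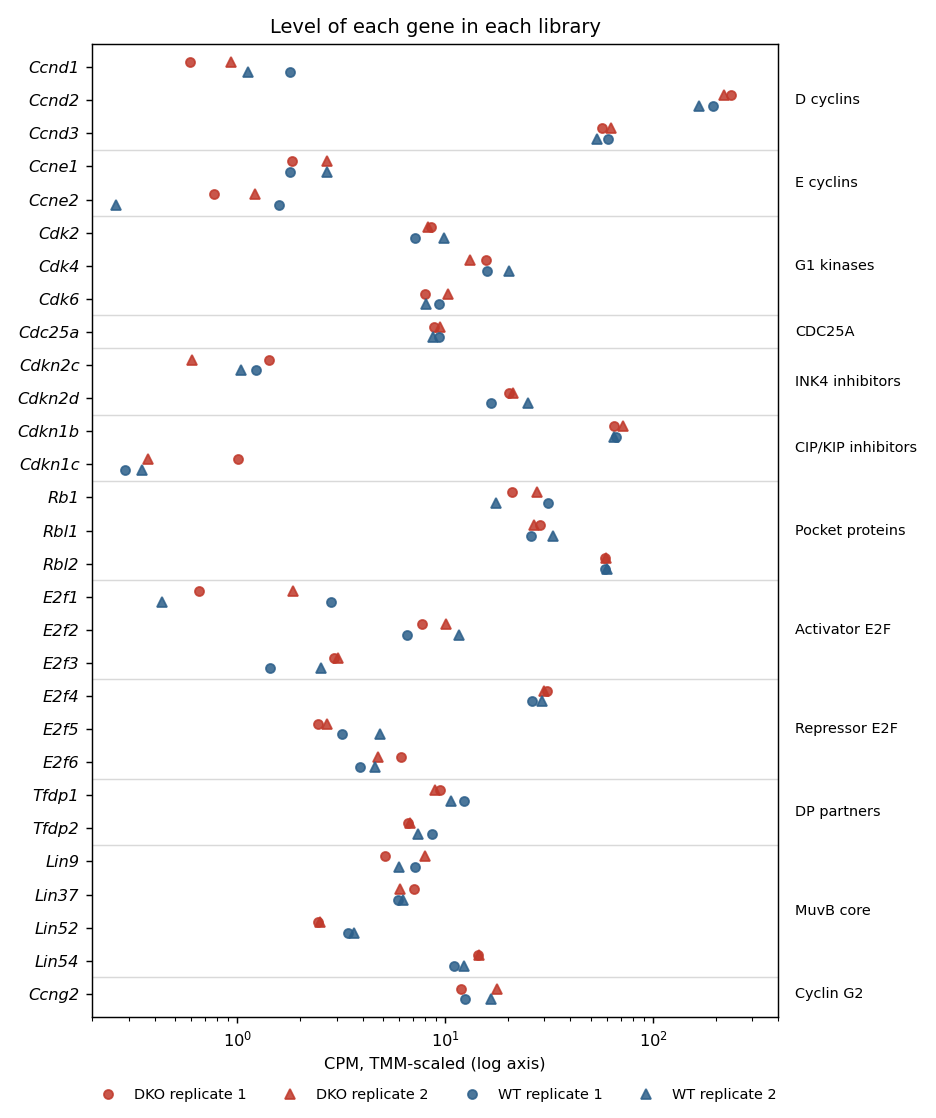
Level of 29 of the genes in each library, in CPM scaled by TMM on a log axis, with DKO in red above WT in blue and the replicates as circles and triangles; Cdkn2a had no counts and is not drawn. Ccnd2 lies at 219 to 237 CPM in DKO and 167 to 193 CPM in WT, while for most genes the colours overlap.

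The libraries matched their genotype labels. Btg1 had 103 and 125 estimated counts in DKO against 7378 and 5443 in WT, and Btg2 had 5 and 7 against 1295 and 1067. Total estimated counts were 16567226 and 17827631 in DKO and 14970076 and 13889894 in WT. All 8 markers of naive CD4 T cells were present, summing to 3170 and 3140 CPM in DKO and 2720 and 3210 CPM in WT, and edgeR called 1 of them, Dapl1 (adjusted p = 0.0386). The 7 regulatory T cell markers, all detected, summed to 124 and 138 CPM in DKO and 60.5 and 79.7 CPM in WT. By edgeR 5 of the 7 were higher at an unadjusted p under 0.05, against 3.82% of all tested genes, with 0 called. The 5 effector or memory markers summed to 40.2 and 42.1 CPM in DKO and 21.2 and 22.5 CPM in WT, with Cd44, a gene of the sort gate, at 498 and 620 counts against 210 and 195. Il2ra, a regulatory marker that encodes the CD25 of the gate, had 103 and 126 counts in DKO and 26 and 37 in WT. CD8 markers summed to 8.64 and 13.2 CPM in DKO and 7.21 and 7.55 CPM in WT. B cell markers summed to 1.66 and 1.48 CPM against 0.865 and 0.347 CPM, and myeloid markers to 2.48 and 4.69 CPM against 4.83 and 3.56 CPM. In a sorted bulk sample, more cells of a type and more RNA per cell cannot be told apart.

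E2F factors are known to act on the promoters of some of their own regulators, so the promoters were searched for E2F words, a match being a description and not a binding site. RefSeq promoters (GRCm38.p6, 250 bases before to 50 after each start) were at hand for 22 of the 30 genes. The search covered both strands for the E2F words TTTCCCGC, TTTGGCGC, TTTCGCGC and TTTGCCGC, which 8 of the 22 genes held (Cdc25a, Cdk2, Cdkn2a, E2f2, E2f3, Lin52, Rbl1 and Tfdp1), against 2.6% of all genes in that table. The words TTTGAA or TTCGAA, the CHR element that MuvB binds, occurred in 5 of the 22 and in 21.7% of all genes. The FOXO word GTAAACAA occurred in 0 of the 22 and in 1.32% of all genes. The 100 bases before the start are shown for 5 genes that span the phosphatase, E2F, MuvB, pocket protein and DP classes, with the E2F word or its complement in capitals.
Cdc25a, chr9:109875479-109875578, plus strand: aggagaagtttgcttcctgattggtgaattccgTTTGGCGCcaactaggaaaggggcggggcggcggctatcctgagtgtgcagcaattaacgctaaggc
E2f3, chr13:29986064-29986163, minus strand: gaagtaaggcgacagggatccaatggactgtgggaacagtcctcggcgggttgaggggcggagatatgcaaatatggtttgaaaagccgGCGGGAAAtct
Lin52, chr12:84451408-84451507, plus strand: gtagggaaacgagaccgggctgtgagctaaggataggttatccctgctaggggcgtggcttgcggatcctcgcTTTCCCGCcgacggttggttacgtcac
Rbl1, chr2:157204535-157204634, minus strand: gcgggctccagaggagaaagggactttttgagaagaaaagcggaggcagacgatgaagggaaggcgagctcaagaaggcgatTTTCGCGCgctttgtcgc
Tfdp1, chr8:13338651-13338750, plus strand: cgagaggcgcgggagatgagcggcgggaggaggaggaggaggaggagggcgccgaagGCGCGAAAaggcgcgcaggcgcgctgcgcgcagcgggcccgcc
The word begins 67, 11, 27, 18 and 43 bases upstream of the start in Cdc25a, E2f3, Lin52, Rbl1 and, for the start shown, Tfdp1. The 7 tested genes with an E2F word had log2 fold changes of −0.51 to 0.60 with a median of −0.03, and the 14 without it −0.38 to 0.35 with a median of 0.03. Among those without it, the searched windows of E2f1 (log2 −0.38), Cdk6, Ccng2, Cdkn2c and Tfdp2 lay inside the annotated gene. For E2f1 that gene spans 154559407 to 154569892 on chromosome 2. Bases before the outermost start of these genes were not searched, so a word there would have been missed.

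D cyclins carry growth signals into the cycle, and Ccnd2 had the most counts of the 30 genes. Ccnd2 (ENSMUSG00000000184, chromosome 6, 127125162 to 127152193, minus strand, GRCm38), the cyclin D that antigen and cytokine signals induce in lymphocytes, had 4005 and 4722 estimated counts in DKO and 2671 and 1924 in WT. These were 237 and 219 CPM in DKO and 193 and 167 CPM in WT. The DKO libraries were the higher pair, by a log2 fold change of 0.34 (SE 0.15), or 1.27-fold, with unadjusted p = 0.0445 and adjusted p = 0.605 by edgeR. Its long protein-coding transcript of 6330 bases held 87.1 and 86.9% of the gene's TPM in DKO and 87.5 and 97.4% in WT. The overlapping antisense genes Gm43126 and 9330179D12Rik had at most 8 counts in any library. Ccnd2 passed the adjusted test under 1 of the other settings, scaling to RNA polymerase III transcripts (log2 1.23, adjusted p = 0.0395 by edgeR), and its adjusted p was 0.066 to 1 under the rest.

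Ccnd3 (chromosome 17, 47505051 to 47599691, plus strand), the D cyclin that drives expansion of immature T cells, had 57 and 62.8 CPM in DKO and 60.6 and 53.4 CPM in WT. The groups overlapped, with a log2 fold change of 0.07 (SE 0.14) and adjusted p = 0.947 by edgeR. Ccnd1, the D cyclin of many non-lymphoid cells, had 10 and 20 counts in DKO and 25 and 13 in WT, so it was close to undetected. Its DKO libraries lay below WT, at 0.591 and 0.928 CPM against 1.8 and 1.13 CPM, with a log2 fold change of −0.94 and an SE of 0.69 (adjusted p = 0.794 by edgeR), and it was −0.56 without WT replicate 1 and −1.28 without DKO replicate 2. Summed over the 3 D cyclins, the level was 294 and 283 CPM in DKO and 255 and 221 CPM in WT, a log2 difference of 0.28 against a pooled SD of 0.11. Most of this sum was Ccnd2, with 237 and 219 CPM in DKO and 193 and 167 CPM in WT.

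Per base of transcript, Ccnd3 and Ccnd2 stood at the head of the 30 genes. In TPM, which the authors scaled for effective length, Ccnd3 had 5.1 and 5.78 in DKO and 3.9 and 3.95 in WT. Ccnd2 had 4.12 and 4.34 TPM in DKO and 2.91 and 1.98 TPM in WT. Ccnd3 was ahead of Ccnd2 in all 4 libraries by gene TPM. A protein-coding Ccnd3 transcript of 299 bases held 32.6 and 22.1% of that gene's TPM in DKO and 16.1 and 25.9% in WT. It did so on 51.2 and 42.1 counts in DKO and 18.6 and 30.2 in WT, so the Ccnd3 TPM leans on few counts. On protein-coding transcripts alone the levels were 4.07 and 4.04 TPM in DKO and 2.59 and 2.65 TPM in WT for Ccnd3, against 3.67 and 4.07 TPM in DKO and 2.59 and 1.97 TPM in WT for Ccnd2, so that their order was not settled. Next by mean TPM over the 4 libraries came Cdkn1b (2.18), Rbl2 (1.48), E2f4 (1.47) and Cdkn2d (1.45), the last 3 of which did not differ beyond their spread. In these total RNA libraries protein-coding genes held 2.62 and 2.71% of the TPM in DKO and 2.31 and 2.22% in WT, and 22 of the 28 tested genes were above 0 on the TPM scale, where the median was 0.14 for these genes and 0.13 for all genes. Cdkn1b exceeded 91.5% of the protein-coding genes with a mean TPM above 0, and Ccnd3, with its transcript of 299 bases included, exceeded 96.5%.

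E cyclins, which act late in G1 with CDK2, were scarce in both genotypes. Ccne1 had 31 and 58 counts in DKO and 25 and 31 in WT, or 1.83 and 2.69 CPM against 1.8 and 2.69 CPM. Ccne2 had 13 and 26 counts in DKO and 22 and 3 in WT. The libraries overlapped for both genes, whose log2 fold changes were 0.02 (SE 0.47) and 0.08 (SE 0.89), with adjusted p = 0.996 and 0.994 by edgeR. The SE of Ccne2 was the widest of the 28 genes, so its depth could show only large differences.

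None of the G1 kinase RNAs was called. Cdk4, the partner of D cyclins, had 15.7 and 13.2 CPM in DKO and 15.8 and 20.3 CPM in WT. The DKO libraries lay just below WT, with a log2 fold change of −0.32 (SE 0.19) and adjusted p = 0.722 by edgeR, and the estimate was −0.12 without WT replicate 2. Cdk6, the other partner, had 7.99 and 10.3 CPM in DKO and 9.3 and 8.07 CPM in WT. Cdk2 had 8.58 and 8.3 CPM in DKO and 7.14 and 9.89 CPM in WT. The libraries of Cdk6 and Cdk2 overlapped, and their log2 fold changes were 0.08 and −0.01 (SE 0.23 each). Cdc25a, the phosphatase that removes inhibitory phosphate from CDK2, had 8.87 and 9.46 CPM in DKO and 9.3 and 8.76 CPM in WT, with overlap and a log2 fold change of 0.02 (SE 0.2). Several of the 30 genes overlap a protein-coding gene on the other strand, and as the strand option is unstated, their reads may be mixed. Cdk2 and Cdk4 overlap Pmel and Tspan31, Ccnd3 overlaps Bysl, and Rbl2 overlaps Aktip. The partner had more counts than the gene itself in each library for Ccnd1 (LTO1, 94 and 117 in DKO and 54 and 52 in WT). The same held for Ccne2 (Ints8, 199 and 301 in DKO and 188 and 126 in WT) and for E2f5, described below. Pmel had 121 and 123 counts in DKO and 172 and 69 in WT, where Cdk2 had 145 and 179 in DKO and 99 and 114 in WT.

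The RNA of p27 did not differ detectably in the cells without BTG1 and BTG2. Cdkn1b (chromosome 6, 134920401 to 134925513, plus strand), which encodes p27, had 64.8 and 71.9 CPM in DKO and 66.6 and 65 CPM in WT. The groups overlapped, and the log2 fold change of 0.06 had an SE of 0.13, which only Rbl2 shared as the smallest of the 28 (adjusted p = 0.961 by edgeR). Cdkn1c, encoding p57, failed the count filter with 17 and 8 counts in DKO and 4 and 4 in WT. Both DKO libraries were above WT at these few counts, and with no filter the log2 fold change was 1.13 with adjusted p = 0.92 by edgeR.

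Of the INK4 inhibitors, which bind CDK4 and CDK6, Cdkn2d was the one well expressed. Cdkn2d, encoding p19INK4D, had 20.2 and 21.1 CPM in DKO and 16.6 and 25.1 CPM in WT, with a log2 fold change of −0.01 (SE 0.21). The WT libraries lay on either side of the DKO libraries, and the estimate was 0.33 without WT replicate 2 and −0.28 without WT replicate 1. Cdkn2c, encoding p18INK4C, had 24 and 13 counts in DKO and 17 and 12 in WT, with overlap. Cdkn2a, which encodes p16INK4A and p19ARF, had 0 counts in all 4 libraries. At 3 counts, taken as the floor of each library and covering counting error only, this allows a level of up to 0.177 and 0.139 CPM in DKO and 0.216 and 0.26 CPM in WT.

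**Figure D2:**
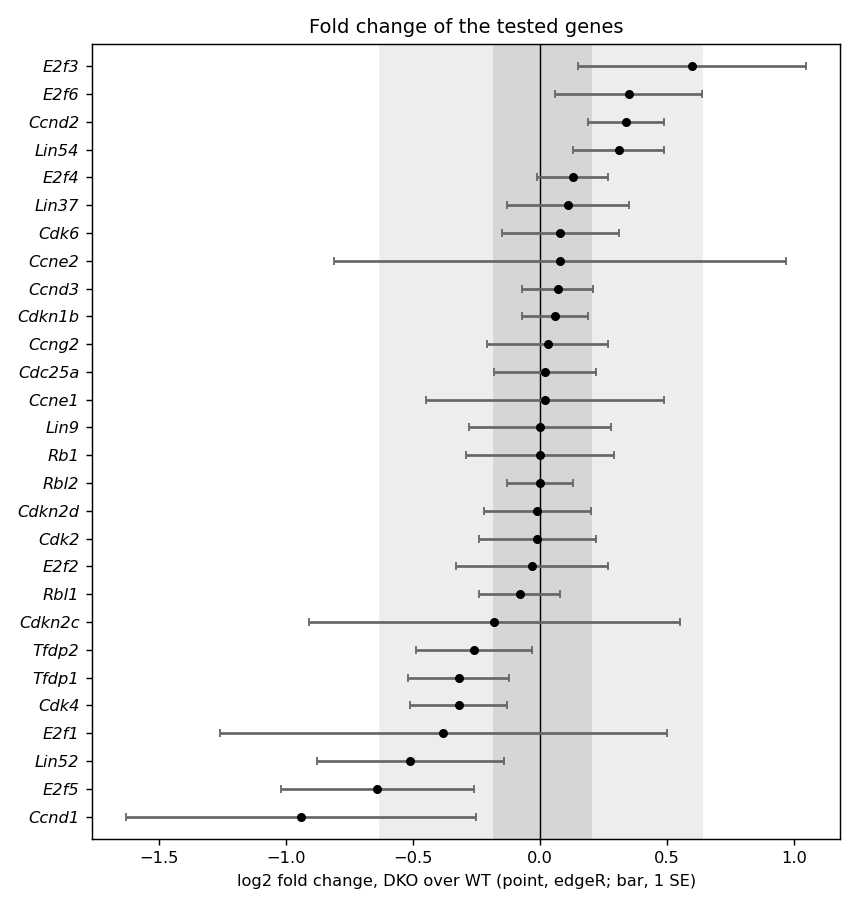
The log2 fold change (DKO over WT) of the 28 tested genes by edgeR, with bars of 1 SE; the dark and light bands hold the middle 50 and 90% of the 10733 protein-coding genes tested. Ccnd2 is at 0.34 and Cdkn1b at 0.06, and 26 of the 28 points lie inside the light band of −0.63 to 0.64.

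Pocket protein RNAs were present at similar levels in both genotypes. Rbl2, encoding the p130 of the quiescent DREAM complex, had 58.9 and 59.1 CPM in DKO and 58.6 and 59.7 CPM in WT. Its log2 fold change was 0 (SE 0.13), and −0.02 to 0.02 with any 1 library removed. Rbl1, encoding p107, had 28.5 and 26.7 CPM in DKO and 25.7 and 32.8 CPM in WT, with overlap and a log2 fold change of −0.08 (SE 0.16). Rb1 varied more within each group, with 21 and 27.6 CPM in DKO and 31.2 and 17.5 CPM in WT. Its log2 fold change was 0 (SE 0.29), and it was 0.47 without WT replicate 1 and −0.34 without WT replicate 2. Rb1 overlaps Rcbtb2 on the other strand, which had 350 and 521 counts in DKO and 186 and 161 in WT. The 3 genes summed to 108 and 113 CPM in DKO and 115 and 110 CPM in WT.

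Among the activator E2Fs, which switch on replication genes, no gene stood out beyond its error. E2f3 had 49 and 66 counts in DKO and 20 and 29 in WT. These were 2.9 and 3.06 CPM in DKO, both above the 1.44 and 2.52 CPM in WT, with a log2 fold change of 0.6 (SE 0.45) and adjusted p = 0.8 by edgeR. Without WT replicate 1 the E2f3 estimate was 0.24, and without WT replicate 2 it was 1.06. E2f1 had 11 and 40 counts in DKO and 39 and 5 in WT, so its replicates differed more than its groups. E2f2 had 7.69 and 10.1 CPM in DKO and 6.56 and 11.7 CPM in WT, with overlap and a log2 fold change of −0.03 (SE 0.3). A non-coding transcript of 426 bases held 82.1 and 87.5% of the E2f2 TPM in DKO and 85.2 and 84.2% in WT, so its TPM overstates its coding RNA.

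The repressor E2Fs lay on both sides of 0. E2f4, the main partner of p130 in resting cells, had 30.8 and 29.7 CPM in DKO and 26.1 and 29.1 CPM in WT. The DKO libraries were above WT by a log2 fold change of 0.13 (SE 0.14, adjusted p = 0.875 by edgeR), and by 0.05 without WT replicate 1 and 0.23 without WT replicate 2. E2f6, which represses through Polycomb rather than pocket proteins, had 6.09 and 4.73 CPM in DKO and 3.89 and 4.6 CPM in WT, above WT by 0.35 (SE 0.29). The E2f6 estimate was 0.23 without WT replicate 1, 0.18 without DKO replicate 1 and 0.55 without DKO replicate 2. E2f5, the other pocket protein partner, was on the opposite side, at 2.43 and 2.69 CPM in DKO and 3.17 and 4.86 CPM in WT. Its log2 fold change was −0.64 (SE 0.38, adjusted p = 0.716 by edgeR), and −0.29 without WT replicate 2. E2f5, with 41 and 58 counts in DKO and 44 and 56 in WT, overlaps 1810022K09Rik on the other strand, which had 257 and 310 counts in DKO and 165 and 146 in WT. The 3 genes summed to 39.3 and 37.1 CPM in DKO and 33.2 and 38.5 CPM in WT, with overlap.

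Both DP genes, whose products pair with E2Fs to bind DNA, had their DKO libraries below their WT libraries. Tfdp1 had 9.46 and 8.91 CPM in DKO and 12.3 and 10.7 CPM in WT, a log2 fold change of −0.32 (SE 0.2). Tfdp2 had 6.62 and 6.77 CPM in DKO and 8.65 and 7.37 CPM in WT, a log2 fold change of −0.26 (SE 0.23) that was −0.14 without WT replicate 1. Neither passed the test, with adjusted p = 0.728 and 0.836 by edgeR. The DP sum was 16.1 and 15.7 CPM in DKO and 20.9 and 18 CPM in WT, a log2 difference of −0.29 against a pooled SD of 0.11. With total counts the DP sum differed by 0.05, where the median of all genes was at 0.33.

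MuvB, the core that DREAM shares with the later MYB and FOXM1 complexes, had 4 members here, none of which was called. Lin54, the DNA-binding subunit, had 14.4 and 14.6 CPM in DKO and 11 and 12.3 CPM in WT. Its DKO libraries were above WT by a log2 fold change of 0.31 (SE 0.18, adjusted p = 0.704 by edgeR). Lin52, whose phosphorylation by DYRK1A allows DREAM to assemble, had 2.43 and 2.5 CPM in DKO, below the 3.39 and 3.64 CPM in WT, with a log2 fold change of −0.51 (SE 0.37). Lin9 and Lin37 overlapped between the groups, at log2 fold changes of 0 (SE 0.28) and 0.11 (SE 0.24). Lin37 had 7.1 and 6.08 CPM in DKO and 5.91 and 6.24 CPM in WT, and Lin9 had 5.15 and 7.98 CPM in DKO and 7.14 and 5.98 CPM in WT. The MuvB sum was 29.1 and 31.1 CPM in DKO and 27.5 and 28.2 CPM in WT. Ccng2, an unconventional cyclin that FOXO factors induce in non-dividing cells, had 11.9 and 17.7 CPM in DKO and 12.5 and 16.6 CPM in WT, with overlap and a log2 fold change of 0.03 (SE 0.24).

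How large these differences appear depended on the scaling, and the libraries also differed in their protein-coding share. Protein-coding genes took 45 and 49.3% of the counts joined to genes in DKO and 39.2 and 36% in WT. With total counts the median of all tested genes was 0.33 and that of the 28 genes 0.36, and with scaling to 5 RNA polymerase III transcripts they were 0.90 and 0.95. Those transcripts varied between replicates, Rmrp having 16057 and 12858 counts in DKO and 18323 and 27334 in WT. Rn7s1 and Rn7s2 had identical counts, 51655 and 46324 in DKO and 46036 and 68742 in WT, so they are not separate measures. TMM sets the middle of the genes near 0, so whether the whole network was higher per cell in DKO was not measured. The D cyclin sum differed by 0.28, 0.62 and 1.21 on the log2 scale with TMM, total counts and polymerase III scaling, and the DP sum by −0.29, 0.05 and 0.64, since a scaling shifts all classes by nearly the same amount. Their place among the 12 classes was not fixed. Without WT replicate 2 the D cyclin difference was 0.19, below the 0.3 of INK4 inhibitors, the 0.28 of activator E2Fs and the 0.22 of repressor E2Fs and of cyclin G2. On the TPM scale it was 0.6, below the 0.79 of Cdc25a, and G1 kinases (−0.01) were the lowest, next to DP partners at 0.

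**Figure D3:**
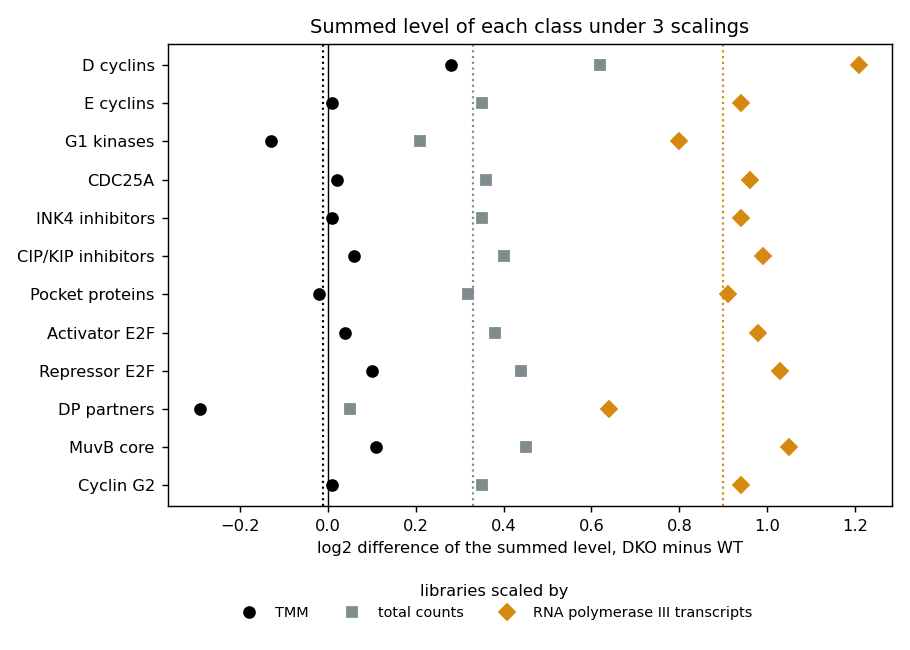
The log2 difference (DKO minus WT) of the summed level of each class, with libraries scaled by TMM (circles), total counts (squares) or 5 RNA polymerase III transcripts (diamonds); dotted lines mark the median of all genes tested under each scaling. D cyclins lie at 0.28 and DP partners at −0.29 under TMM, and the other scalings shift every class together.

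Ratios within a library do not depend on scaling, and 8 were computed as descriptions, chosen after the levels were seen. The ratio of Ccnd2 to Cdkn1b counts, a cyclin set against its inhibitor, was 3.65 and 3.05 in DKO and 2.89 and 2.57 in WT. The DKO libraries were the higher pair, by 1.22-fold or 0.29 on the log2 scale with a pooled SD of 0.16. The ratio of Ccnd2 to Ccnd3 was 4.16 and 3.49 in DKO and 3.18 and 3.12 in WT, and that of Ccnd2 to Rbl2 was 4.03 and 3.71 in DKO and 3.29 and 2.8 in WT, again without overlap. By contrast Ccnd3 to Cdkn1b was 0.879 and 0.873 in DKO and 0.91 and 0.821 in WT, with overlap. D cyclins to pocket proteins gave 2.72 and 2.49 in DKO and 2.21 and 2.01 in WT, and D cyclins to G1 kinases 9.13 and 8.87 in DKO and 7.91 and 5.79 in WT. Every ratio without overlap had Ccnd2 in its numerator, alone or as most of the D cyclin sum, so these ratios are not separate observations. D cyclins to the CDK inhibitors among the members (Cdkn1b, Cdkn1c, Cdkn2a, Cdkn2c and Cdkn2d) overlapped, at 3.37 and 3.01 in DKO and 3.01 and 2.42 in WT. Other CDK inhibitor genes, such as Cdkn1a and Cdkn2b, were not in this sum. Activator to repressor E2Fs overlapped too, at 0.286 and 0.404 in DKO and 0.326 and 0.381 in WT. The summed regulatory and effector T cell markers were also higher in both DKO libraries, with 0 of them called. Of the 7 regulatory markers, 6 had both DKO libraries above WT and 1, Ctla4, overlapped. The 2 tested effector markers also had both DKO libraries above WT, and 19.8% of all tested genes did so. The part of these markers in the Ccnd2 levels and ratios was not tested.

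**Figure D4:**
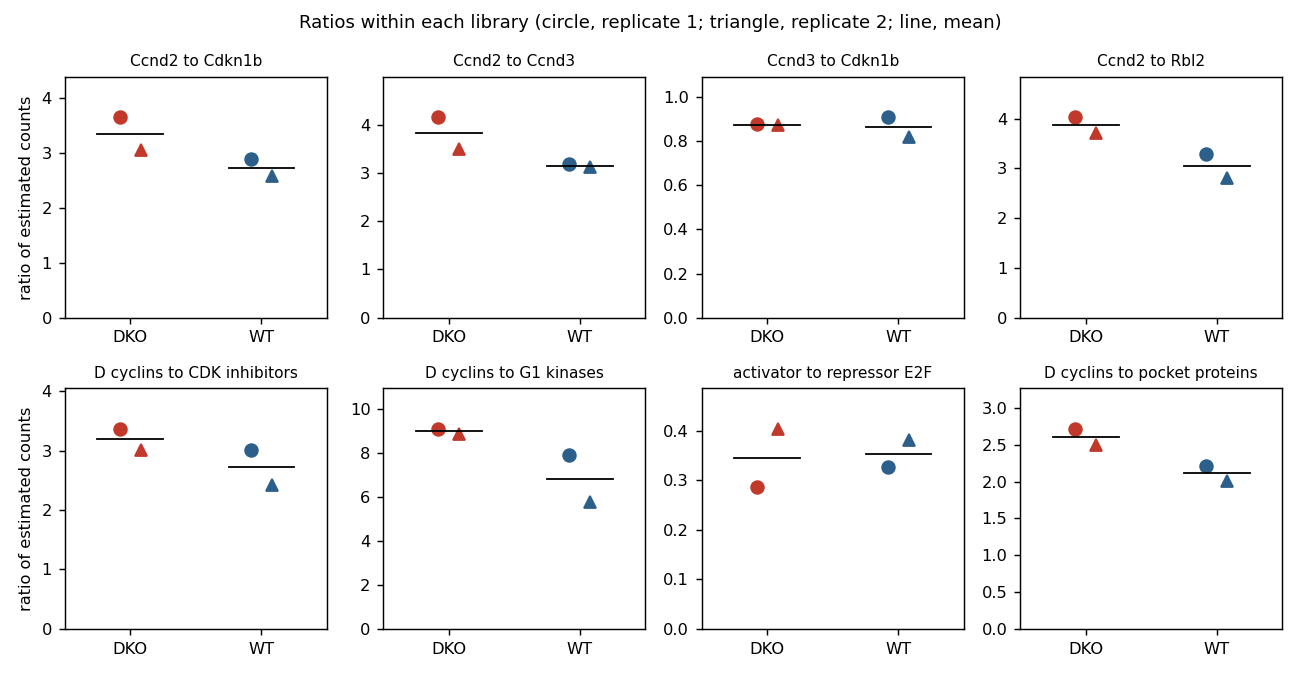
Ratios of estimated counts within each library for the 8 comparisons, DKO in red left of WT in blue, with circles for replicate 1, triangles for replicate 2 and lines for the mean; all axes start at 0. Ccnd2 to Cdkn1b lies at 3.05 to 3.65 in DKO and 2.57 to 2.89 in WT.

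Other genes of the pathway gave no call either. Of 58 further G1, RB and E2F genes, 49 were tested, and edgeR called 0 in either direction over all genes (0 at an unadjusted p under 0.05, and 0 by DESeq2), with a median log2 fold change of 0.01. The smallest unadjusted p-values were those of Dyrk1b, a kinase related to DYRK1A (log2 0.64), Cdc25b, a mitotic phosphatase (1.06), the corepressor gene Sin3b (0.29) and Cables2 (−0.32), with adjusted p = 0.655 to 0.7 by edgeR. Among 18 genes of FOXO signalling and T cell rest the median was 0.05, with 0 called by edgeR or DESeq2 and 1 at an unadjusted p under 0.05. That gene, Tob1, a BTG relative that restrains T cell growth, had 30.8 and 28.9 CPM in DKO and 20.3 and 19.3 CPM in WT, without overlap (log2 0.59, SE 0.14, adjusted p = 0.228 by edgeR). The next were Sesn3 (0.31), Tsc1 (−0.31) and Txnip (0.24). Of 15 tested growth inputs, Mxd4, which opposes MYC, had 35.7 and 49.3 CPM in DKO and 24.6 and 24.6 CPM in WT (log2 0.79, adjusted p = 0.19 by edgeR). Jun was at −0.5, Rel at 0.32 and Mxd1 at 0.22, and 0 of these inputs were called by edgeR or DESeq2. By edgeR 1 input was higher and 1 lower at an unadjusted p under 0.05. Of all tested genes, 3.82% were higher and 4.35% lower at that p, which is the background for each of these lists.

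Genes that E2F and DREAM control were called in neither direction, and many of the mitotic ones had their highest level in DKO replicate 2. Of 44 tested genes of G1/S and DNA replication, 30 lay above 0 (68.2%, against 48.1% of all genes and 52.7% of protein-coding genes). The median of the 44 was 0.12. Both DKO libraries lay above WT for 15 and below WT for 3, against 19.8% and 18.8% of all tested genes. Over all genes edgeR called 0, as did DESeq2. At an unadjusted p under 0.05 edgeR passed 3 higher and 0 lower, against 3.82% and 4.35% of all genes. Lig1, DNA ligase I, had 13.8 and 13.2 CPM in DKO and 6.63 and 9.97 CPM in WT (log2 0.7, adjusted p = 0.435 by edgeR), with no overlap. Chaf1a, Mcm5 and Pola2, a chromatin assembly factor and parts of the helicase and primase, were at 2.07, 0.49 and 0.37, Chaf1a on 19 and 34 counts in DKO against 4 and 4 in WT. Of 24 tested G2/M genes, 18 lay above 0 (75%) with a median of 0.41. Both DKO libraries lay above WT for 6 and below WT for 0, against the same 19.8% and 18.8% of all tested genes. No G2/M gene was called over all genes by edgeR (3 higher and 0 lower unadjusted) or by DESeq2. DKO replicate 2 had the highest level of 21 of the 30 G2/M genes listed and of 20 of the 48 replication genes. The same held for 9 of the 18 genes of T cell rest and 7 of the 16 growth inputs, against 21.8% of all tested genes. For the further pathway genes with counts it was 10 of 56, and for the members with counts 9 of 29. These lists include genes that failed the count filter, while the share of all genes does not. The G2/M list summed to 55.5 and 113 CPM in DKO and 59.8 and 47.3 CPM in WT. The 5 markers of cycling cells summed to 19.8 and 56.4 CPM in DKO and 14.1 and 12.2 CPM in WT, and the share of cycling cells was not measured.

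The proliferation marker Mki67 was above WT in both DKO libraries and highest in replicate 2, with 151 and 678 counts in DKO and 59 and 67 in WT, or 8.93 and 31.5 CPM against 4.25 and 5.81 CPM. Top2a had 9.58 and 21.5 CPM in DKO and 7.43 and 5.64 CPM in WT, Cenpf 1.66 and 4.41 CPM against 1.01 and 1.39 CPM, and Cdc20 12 and 31 counts against 2 and 2. The G2/M median was −0.15 without DKO replicate 2 and 0.74 without DKO replicate 1, and without DKO replicate 1 edgeR called Mki67 (log2 2.67), Top2a (1.73) and Cdc25b (1.58), with adjusted p = 0.00217, 0.0361 and 0.0369. With TMM, DKO replicate 2 was not the higher of the DKO libraries for Ccnd2, at 219 CPM against 237 CPM in replicate 1. That order depended on the scaling, as in gene TPM replicate 2 was the higher, at 4.34 against 4.12. Without DKO replicate 2 the log2 fold change of Ccnd2 was 0.42 (adjusted p = 1 by edgeR) and without replicate 1 it was 0.3.

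**Figure D5:**
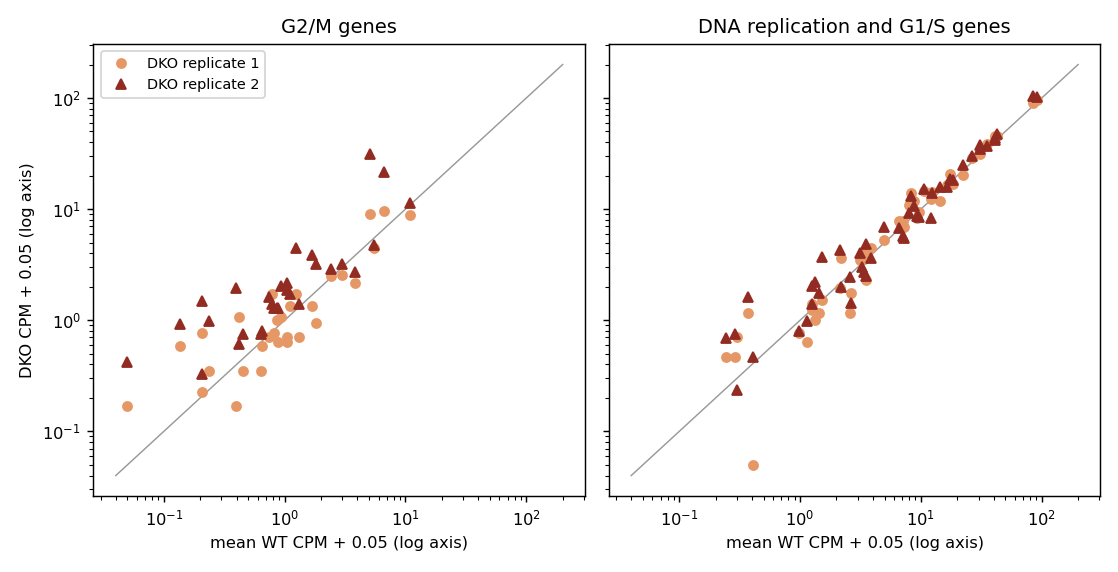
Level of the 30 G2/M genes (left) and 48 replication and G1/S genes (right) in DKO replicate 1 (orange circles) and DKO replicate 2 (dark red triangles) against the mean of the WT libraries, in CPM + 0.05 on log axes, with the line of equality. DKO replicate 2 lies above the line for most G2/M genes, with Mki67 at 31.5 CPM, while most replication genes of both DKO libraries lie near the line, with wider scatter at low levels.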

How the data were processed

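The authors quantified transcripts with kallisto on builds mm10 and GRCm38, per the submitters' processing notes. Its version, its strand option and the annotation behind it are unstated in those notes and in the labels. The total RNA kit was a stranded one, per the labels' protocols. The deposited estimated counts are unscaled and per transcript. The deposited TPM values carry the authors' scaling by effective length. Of 126782 transcripts, 125182 (98.7%) matched a GENCODE M21 identifier, and the 1600 others, with 0.822 to 0.852% of counts, were left out. Sums over the transcripts of a gene were rounded to whole counts, for 48858 genes. The main test was edgeR 4.0.16 (R 4.3.3) with filterByExpr, TMM scaling and a quasi-likelihood F test of DKO against WT, adjusted by Benjamini-Hochberg over 12863 genes at 0.05. SE was taken as the log2 fold change over the root of F. Total counts, 5 RNA polymerase III transcripts, DESeq2 1.42.0 and limma 3.58.1 on log2(TPM + 0.5) were among the alternatives. The code was tested on simulated data.

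The members, lists and classes were chosen with earlier results of these data known. All 30 members are named. Of each of 5 further lists, up to 4 tested genes with the smallest p are named, and any called. Other named genes were chosen after their values were seen. Genes on the opposite strand overlap 15 members.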

Additional observations from a re-analysis of the deposited data

How the results depend on the processing

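The count of 7 higher and 9 lower genes under edgeR moved to 194 and 66 with total counts, 472 and 22 with polymerase III scaling, 141 and 254 with no filter, 42 and 126 with DESeq2, 35 and 16 with protein-coding genes only, 3 and 4 with an effective length offset, and 1 and 4 with limma on TPM. With 1 library left out it was 12 to 34 higher and 28 to 131 lower. The cause of these shifts was not tested. The median of the members was 0.36 with total counts and 0.95 with polymerase III scaling, with 24 and 27 members above 0, and 22 were above 0 with limma on TPM. The only member called in any setting was Ccnd2, with polymerase III scaling (1 higher, log2 1.23).

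With total counts the listed genes called were Lig1, Tob1 and Mxd4 (1 in each of 3 lists). With polymerase III scaling they were Cdc25b and Mxd4 (1 each in their lists), Lig1 and Mcm5 (2), Tob1 and Txnip (2), and Mki67, Top2a and Cenpf (3). With no filter they were Cdc25b, Top2a, Tob1 and Mxd4, 1 in each of 4 lists. Without DKO replicate 1, 1 further pathway gene and 2 G2/M genes were called, against 0 without any other library, so those counts ranged from 0 to 1 and 0 to 2. The cause was not tested.

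Deviations of same-numbered libraries from their group means correlated at −0.316 over 12863 genes, and the labels do not state that numbers mark pairs. The replicate block gave 53 genes higher and 90 lower, with 1 G2/M gene (Mki67) and 1 growth input (Mxd4) called. Crossed pairing, added after seeing the data, gave 136 and 384 genes, with Top2a (1 G2/M gene), Tob1 (1 gene of T cell rest), and Mxd4 and Jun (2 growth inputs). Neither block called a member.

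Total counts and polymerase III scaling move all genes together (medians 0.33 and 0.9), so a reversed sign there is no change relative to other genes. Cdk4, E2f5, Tfdp1 and Lin52 reversed in those settings alone. With total counts the reversed log2 fold changes were Cdk2 0.34, Cdk4 0.02, Cdkn2c 0.12, Cdkn2d 0.35, Rb1 0.34, Rbl1 0.27, Rbl2 0.34, E2f2 0.34, Tfdp1 0.01 and Tfdp2 0.08. With polymerase III scaling they were Cdk2 0.95, Cdk4 0.62, Cdkn2c 0.64, Cdkn2d 0.97, Rb1 0.87, Rbl1 0.86, Rbl2 0.92, E2f1 0.46, E2f2 0.99, E2f5 0.34, Tfdp1 0.58, Tfdp2 0.64 and Lin52 0.42. With no filter they were Cdk2 0.03, Cdkn2d 0.03, Rb1 0.04, Rbl2 0.04 and E2f2 0. With DESeq2 they were Cdk2 0.01, Cdkn2d 0.01, Rb1 0.02 and Rbl2 0.01, and with its size factors Lin9 0. With protein-coding genes only they were Ccne1 −0.01, Cdc25a −0.01 and Lin9 −0.03. With the length offset they were Cdk2 0, Cdk6 −0.04, Cdkn2d 0.02, Rbl2 0.13, E2f2 0.04, Lin9 −0.08 and Ccng2 −0.1. With limma on TPM they were Cdk2 0.16, Cdkn2c 0.03, Cdkn2d 0.31, Rbl1 0.14, Rbl2 0.38, E2f1 0, E2f2 0.28 and Tfdp2 0.04. Under the replicate block they were Cdk2 0, Cdkn2d 0.02, Rb1 0.04 and Lin9 −0.03, and under crossed pairing Cdk2 0.01, Cdkn2d 0.02, Rb1 0.03, E2f2 0 and Lin9 −0.02.

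With 1 library left out, signs reversed within ranges of 0 to 0.16 for Ccnd3, −0.26 to 0.35 for Ccne1, −0.66 to 1.9 for Ccne2, −0.26 to 0.31 for Ccng2, −0.01 to 0.09 for Cdc25a, −0.23 to 0.26 for Cdk2, −0.1 to 0.27 for Cdk6, −0.88 to 0.35 for Cdkn2c, −0.28 to 0.33 for Cdkn2d, −1.3 to 1.53 for E2f1, −0.4 to 0.45 for E2f2, −0.33 to 0.3 for Lin9, −0.34 to 0.47 for Rb1, −0.25 to 0.12 for Rbl1 and −0.02 to 0.02 for Rbl2. With SEs of 0.13 to 0.89, depth and 2 libraries per group limit what could be seen, most for Ccne2, E2f1, Cdkn2c and Ccnd1.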

Other observations

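Within E2f3, the genotypes differed in which of 2 near-identical protein-coding transcripts was assigned the estimated counts. This pattern was picked out after the values were seen and was not tested. The transcript of 4597 bases had 41.1 and 49.6 estimated counts in DKO and 0.4 and 0.4 in WT. The transcript of 4579 bases had 0 and 0 counts in DKO and 19.6 and 28.6 in WT. Of their words of 31 bases, 48 and 30 occur in one and not in the other. Within Rbl2 the division also differed between replicates of a genotype. Its transcript of 4925 bases had 688.4 and 991.2 counts in DKO and 264.4 and 628.6 in WT, and its transcript of 4504 bases had 254.6 and 177.1 counts in DKO and 481.2 and 52.1 in WT.

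Cyclin A2 and the kinesin gene Kif11 failed the count filter and had their highest counts in DKO replicate 2. Ccna2 had 6 and 45 counts in DKO and 4 and 3 in WT, and Kif11 had 2 and 41 counts in DKO and 6 and 3 in WT.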
